A study of Mus musculus with 24 samples.

Results

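Mouse embryonic fibroblasts (MEFs, connective tissue cells cultured from embryos) lacking cGAS were compared with wild-type (WT) MEFs on day 33 of culture, the earliest of the days sampled. The genes described are those that reached 5 CPM (counts scaled to a common library size) or more in either genotype on that day. They number 11877 of the 45706 genes in the deposited table. A further 14850 genes had a count on day 33 and stayed under 5 CPM in both genotypes, and 18979 genes had none. The comparison rests on 8 of the 24 sample columns, 4 numbered columns for each genotype.

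Both groups were of strain C57B1/6, as the labels spell it, were kept under 20% oxygen and had gone through 11 passages when bulk RNA was taken. The genotypes are given as WT and cGAS KO (called KO below). The labels name no allele, no embryo and no sex, and do not say whether the numbered samples came from separate cultures. The other columns hold WT and KO cells of day 36 (12 passages) and day 42 (14 passages), and they are used only to show whether a difference of day 33 was also found later.

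cGAS, encoded by Mb21d1, binds double-stranded DNA in the cytosol and makes the messenger cGAMP. cGAMP activates STING (Tmem173), and through the kinase TBK1 and the factors IRF3 and NF-kB this turns on interferon and inflammatory genes. Fibroblasts that are passaged under atmospheric oxygen pick up DNA damage and enter senescence, a lasting growth arrest in which the inhibitors encoded by Cdkn2a and Cdkn1a hold the cell cycle and cytokines and proteases are secreted. cGAS is known for driving part of that secretory program.

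The 4 columns of a group differed by less than the sampling noise of counts. Over 13738 WT and 12916 KO genes with at least 80 counts, chi-square per degree of freedom among the columns averaged 0.833 and 0.842, against 37.3 between a WT column and a KO column. They were therefore added up and counted as 1 sample, of 48716880 counts in WT and 33635944 in KO, and the difference between genotypes has no replicate check. Intervals given with ratios are exact 95% intervals that cover counting error only. Fibroblast genes such as Col1a1, Col1a2, Fn1 and Vim were abundant in both libraries. Of 13 listed fibroblast markers, 5 were past 2-fold lower in KO (Thy1, Dcn, Lum, Fap and Pdgfra) and 0 higher. Sex-linked RNA separated the libraries: Xist, which coats and silences 1 X chromosome in female cells, had a level of 0.369 CPM in WT and of 481 in KO, while the Y-linked Uty was at 32.5 and 2.92, Eif2s3y at 65.0 and 6.62, Kdm5d at 41.6 and 6.80 and Ddx3y at 151.6 and 39.2 CPM. The KO library thus held Xist and also RNA of these Y-linked genes, at lower levels than WT. Whether it held cells of both sexes was not tested. Sex and genotype cannot be told apart in this comparison. Outside Xist, the 552 X-linked genes had a median log2 difference of 0.00, and autosomal genes one of -0.01. The share of counts from the mitochondrial genome was 1.88% in WT and 1.27% in KO. The summed level of 19 macrophage markers was 246.7 CPM in WT against 107.4 in KO, with 0 of the 19 at 0 in either library. On day 36 these sums were 58.4 and 10.4 CPM and on day 42 25.1 and 8.07, and 10 of the 19, C1qa and Adgre1 among them, were at 0 in KO on day 42. The part of other cell types in the differences below was not tested, and in bulk RNA fewer cells of a type and less RNA per cell cannot be told apart.

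On day 33, KO and WT cells differed at least 2-fold in 777 of the 11877 genes. KO was higher for 284 genes, which is 2.39% of those compared, and lower for 493, which is 4.15%. The largest differences included the transcription factor genes Foxd1 and Pax1 and the cartilage collagen gene Col2a1 among those higher in KO, and the retinoid-binding protein gene Crabp1, the orphan receptor gene Gpr149 and HOX genes of the Hoxc cluster among those lower. Most genes were alike: the median log2 difference (KO over WT, log2 CPM with a prior count of 2) was -0.01, the quartiles were -0.19 and 0.17, and 48.0% of genes lay above 0. A 4-fold difference was reached by 69 genes higher and 169 lower in KO, and an 8-fold difference by 24 and 68. For 603 of the 777 genes the counting interval lay wholly past 2-fold. Because a gene needed 5 CPM in only 1 library, 105 of the higher genes passed through KO alone and 248 of the lower genes through WT alone, and such genes had to differ. At the edge, Adgrg6 with 77.0 CPM in WT and 154.1 in KO and Mpp1 with 250 and 124.9 lay just inside 2-fold, and Col19a1 (3.99 and 8.03) and Sipa1l1 (210.9 and 105.5) just outside. The Col19a1 levels have a ratio of 2.01, but the prior count puts its log2 difference at 0.9977. At 5 CPM, Cyp4f13 and Gm16284 lay just inside with 5.01 CPM in WT (KO 3.61 and 2.86), and Arhgef3 and Ovca2 just outside with 4.99 (KO 4.63 and 4.24).

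**Figure D1:**
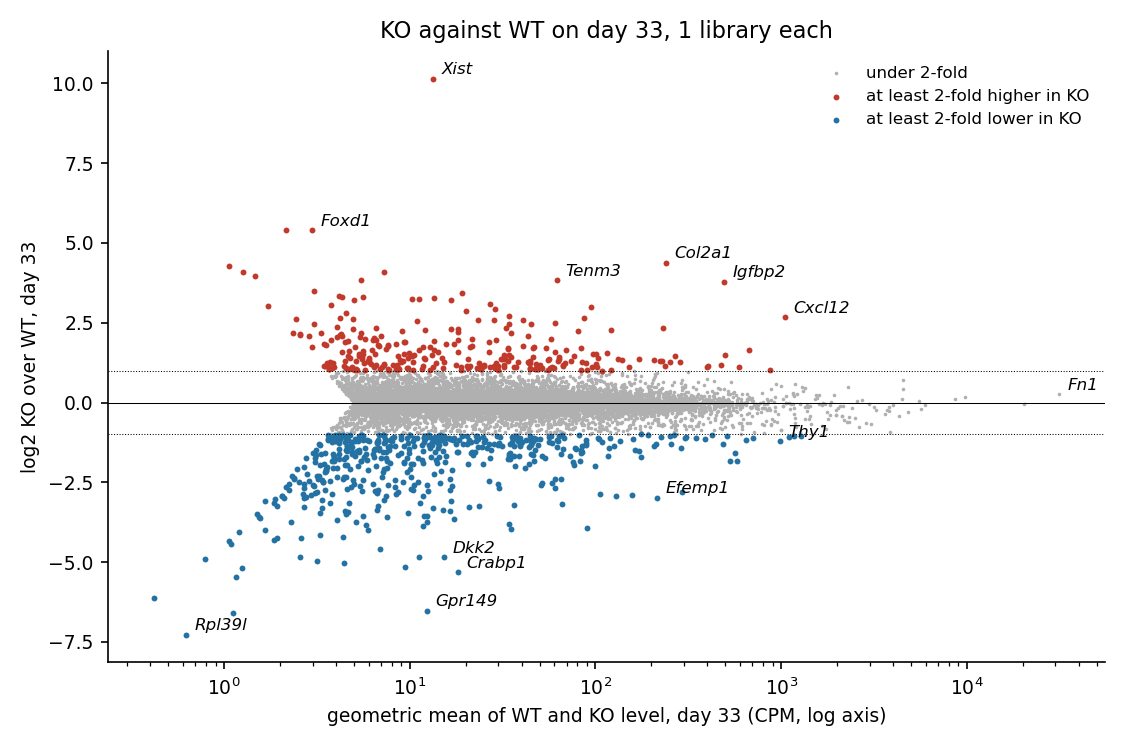
Each point is 1 of 11877 genes, with the geometric mean of its WT and KO level on day 33 in CPM on a log axis across and the log2 difference, KO over WT, upward; red points are the 284 genes at least 2-fold higher in KO and blue points the 493 at least 2-fold lower. Col2a1, Igfbp2 and Cxcl12 stand out among abundant genes that were higher in KO, and Efemp1 among those that were lower.

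The only spread between libraries in these data is that between days 36 and 42 within a genotype. A fit that borrowed it (edgeR's quasi-likelihood test, 2 residual degrees of freedom, the single libraries of day 33 taken to vary like the later ones) called 0 of 18620 genes, or 0%, on day 33 at an adjusted p below 0.05, with 1500 genes at an unadjusted p below 0.05. DESeq2 with the same groups called 367 genes. Without the WT library of day 36 or of day 42 edgeR called 744 or 882 genes, and without either KO library it called 0. The sizes below are therefore descriptions of these libraries, and "higher" and "lower" name a difference between 1 library of each genotype. For every gene list below, the shares to compare with are 2.39% of all genes past 2-fold higher and 4.15% lower. Any gene below that reached 5 CPM in only 1 genotype had its direction set by that threshold.

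Mb21d1 (ENSMUSG00000032344, GRCm38 chromosome 9, 78430526 to 78443237, minus strand), the targeted gene, had 222 counts in WT and 8 in KO on day 33, or 4.82 and 0.241 CPM, 20.0-fold lower in KO (9.99 to 47.0). It lay under 5 CPM and so outside the genes compared, but its level matched the labels, as it did on day 36 (4.1 and 0 CPM) and day 42 (4.79 and 0.126 CPM). Of 15 genes near it on chromosome 9 that reached 5 CPM, 1 was past 2-fold. That gene was Gsta4, a glutathione transferase, with 17.5 CPM in WT and 2.59 in KO.

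Genes of the signalling steps around cGAS were examined next. Of 27 listed genes of DNA and RNA sensing and interferon signalling, 23 reached 5 CPM, and 0 were past 2-fold in either direction, beside 2.39% (higher) and 4.15% (lower) of all genes. Their median log2 difference was 0.05, from -0.64 for Ifih1, an RNA sensor, to 0.84 for Enpp1, an enzyme that breaks down cGAMP. Tmem173 (STING) was at 40.1 CPM in WT against 36.1 in KO on day 33, at 32.8 and 41.5 on day 36 and at 21.2 and 30.6 on day 42, so that KO was the lower library on day 33 and the higher on both later days. The kinase gene Tbk1 was at 47.2 and 45.4 CPM on day 33, and Irf3 at 32.7 and 35.4. Samhd1, which limits nucleotide supply, was at 82.5 CPM in WT against 134.7 in KO.

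Interferon-stimulated genes were low or mixed. Of 50 listed, 21 reached 5 CPM, 2 were past 2-fold higher and 3 lower in KO, and the median was -0.14. Over all genes 2.39% were past 2-fold higher and 4.15% lower. Irgm1, an immunity-related GTPase that acts on membranes around intracellular pathogens, was at 59.3 CPM in WT against 169.8 in KO, 2.86-fold higher (2.74 to 3.00), and its relative Igtp was at 3.54 and 7.28 CPM. Trim25, a ubiquitin ligase that activates the RNA sensor RIG-I, was at 71.3 and 32.1 CPM, 2.22-fold lower in KO (2.07 to 2.38). The translation inhibitor gene Ifit3 was at 7.84 CPM in WT against 2.71 in KO on day 33. It was at 4.70 and 11.2 on day 36 and at 14.1 and 9.48 on day 42, so KO was the higher library on day 36 alone. On day 33 it reached 5 CPM only in WT, as did Ifit3b, so that threshold set their direction. Ifit3b had nearly the same values, 7.64 and 2.71 CPM; reads of these near-identical genes may be split between the copies, so both values are uncertain. Isg15 stood at 1.04 and 1.05 CPM, Cxcl10 at 0.347 and 0.150 CPM from 16 and 5 counts, and Ifnb1 at 0 in all 6 libraries.

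Genes of cell division were higher in KO almost throughout, and all but Espl1 by less than 2-fold. Of 50 listed genes of mitosis and the spindle, 49 reached 5 CPM and 48 of these lay above 0, with a median log2 difference of 0.65 against -0.01 over all genes. Only Espl1 was past 2-fold among the 49, and it was under 2-fold when column 1 or column 4 was left out; Pttg1 at -0.05 was the only member below 0. Of 50 listed genes of DNA replication and nucleotide supply 49 reached 5 CPM, 45 lay above 0 and 0 were past 2-fold, with a median of 0.36. Medians were larger on the later days, 0.81 and 0.79 for mitosis and 0.62 and 0.83 for replication on days 36 and 42. The summed mitosis level was 2162 CPM in WT against 3277 in KO on day 33, 2168 and 3657 on day 36, and 2173 and 3745 on day 42. WT sums thus lay close together on the 3 days, and every KO sum was above every WT sum.

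Many genes of mitosis carry in their promoters a CCAAT box, bound by the factor NF-Y, and downstream of it a cell cycle homology region (CHR), bound by the DREAM and MuvB complexes, which hold such genes silent in resting cells and activate them in dividing cells. Genes of replication more often carry E2F sites. RefSeq promoter windows (GRCm38.p6, 250 bases before to 50 after each start) were found for 41 of the 49 mitosis genes and 40 of the 49 replication genes and were searched on both strands. The CCAAT box was searched as CCAAT, the CHR as TTTGAA, and E2F sites as TTCCCGCC, TTTCCCGC or TTTGGCGC, which partly overlap one another. Both a CCAAT box and a CHR were in a window of 61.0% of the mitosis genes, 10% of the replication genes and 7.97% of all 27025 genes with an entry. The 27025 genes were taken whatever their level, while both lists hold only genes at 5 CPM. Of all 11877 genes at 5 CPM, 8479 matched an entry, and their shares were not computed. A CHR alone or with other motifs was in 68.3%, 12.5% and 20.2%, and an E2F site in 7.32%, 42.5% and 3.69%. A match is a description of letters and not a bound site. The 100 bases before the start are printed for Espl1, the only mitosis gene past 2-fold, and for 3 further members whose CCAAT box and CHR both lie in that stretch, with CCAAT boxes (CCAAT or ATTGG) and CHRs (TTTGAA or TTCAAA) in capitals.
Espl1, chr15:102296193-102296292, plus strand: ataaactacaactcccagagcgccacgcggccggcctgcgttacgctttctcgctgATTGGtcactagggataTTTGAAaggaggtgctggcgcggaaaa
Cdc20, chr4:118437344-118437443, minus strand: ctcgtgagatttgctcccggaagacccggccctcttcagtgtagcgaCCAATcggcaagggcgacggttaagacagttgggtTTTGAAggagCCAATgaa
Top2a, chr11:99024190-99024289, minus strand: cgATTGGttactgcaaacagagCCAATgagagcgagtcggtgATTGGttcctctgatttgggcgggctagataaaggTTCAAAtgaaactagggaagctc
Kif11, chr19:37376282-37376381, plus strand: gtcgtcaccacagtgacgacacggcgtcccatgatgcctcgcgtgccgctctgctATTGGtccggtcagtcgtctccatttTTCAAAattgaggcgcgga

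Espl1 encodes separase, the protease that cuts cohesin at anaphase. It was at 21.1 CPM in WT against 42.7 in KO on day 33, a ratio of 2.03 (1.87 to 2.2), at 20.7 and 49.5 on day 36 and at 23.3 and 50.4 on day 42, with no overlap between the genotypes. Cdc20, the activator of the anaphase-promoting complex, was at 17.1 and 28.8 CPM on day 33, at 18.6 and 33.0 on day 36 and at 17.7 and 28.8 on day 42. Top2a, the topoisomerase that untangles sister chromatids, was at 160.3 and 261.5 CPM on day 33, and Kif11, a motor of spindle bipolarity, at 34.2 and 55.4. Both were also higher in KO on day 36 (146.5 and 281.1 CPM for Top2a, 31.0 and 63.0 for Kif11) and on day 42 (169.7 and 310.4, 39.1 and 69.1). Mki67, a proliferation marker, was at 149.5 and 228.1 CPM on day 33, a ratio of 1.53 (1.48 to 1.58). Among replication genes, Uhrf1, which guides maintenance of DNA methylation, was at 25.8 and 49.6 CPM, and Tyms, the thymidylate synthase, at 12.0 and 22.6. The G1/S cyclin gene Ccne1 lay the other way on day 33, at 60.0 CPM in WT and 46.5 in KO, and was higher in KO on days 36 (51.0 and 62.5) and 42 (48.4 and 54.9). E2f1 was lower in KO on all 3 days, with 48.0 and 39.0 CPM on day 33.

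Cell cycle inhibitors differed in both directions. Of 21 listed inhibitors and senescence regulators at 5 CPM, 2 were past 2-fold higher and 2 lower in KO, with a median of 0.09. The shares of all genes were 2.39% higher and 4.15% lower. The neighbours Cdkn2a and Cdkn2b on chromosome 4 (89274471 to 89294653 and 89306299 to 89311039) were the lower pair. Cdkn2a, the gene of p16Ink4a and p19Arf, stood at 110.4 CPM in WT against 40.5 in KO on day 33, 2.73-fold lower (2.57 to 2.90), and KO stayed at 43.3 and 37.5 CPM on the later days against 100.9 and 84.4 in WT. Cdkn2b, which encodes p15Ink4b, was at 62.0 and 25.1 CPM, 2.47-fold lower (2.29 to 2.67). On the later days its KO level was 12.9 and 12.7 CPM against 55.8 and 59.4 in WT, so the difference of day 33 was the smallest of the 3. Cdkn1b, which encodes p27Kip1, went the other way with 32.8 and 68.4 CPM on day 33, a ratio of 2.08 (1.95 to 2.22), and with 38.8 and 69.5 on day 36. Cdkn2c (p18Ink4c) was at 9.10 and 19.6 CPM on day 33, with the genotypes close on day 42 at 13.7 and 15. The lamin gene Lmnb1, whose loss marks senescent cells, was at 48.0 CPM in WT against 73.6 in KO.

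Most listed targets of p53 were lower in KO, by small amounts. Of 37 at 5 CPM, 29 lay below 0 and 8 above, with a median of -0.20. Over all genes 48.0% lay above 0, and the median was -0.01. The only member past 2-fold was higher in KO: Gdf15, a stress cytokine, at 2.39 CPM in WT and 5.77 in KO. Gdf15 reached 5 CPM only in KO, so that threshold set its direction. Cdkn1a, which encodes the inhibitor p21, was at 589 CPM in WT against 411.2 in KO, 1.43-fold lower (1.4 to 1.46), and Mdm2, the ligase that degrades p53, at 407.5 and 230 CPM, 1.77-fold lower (1.73 to 1.82). Trp53 itself was at 72.5 and 75.3 CPM, within counting error (ratio 1.04, 0.985 to 1.09). Cdkn1a and Mdm2 were lower in KO on the later days too, and Trp53 was then higher, with 70.0 and 90.3 CPM on day 36.

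**Figure D2:**
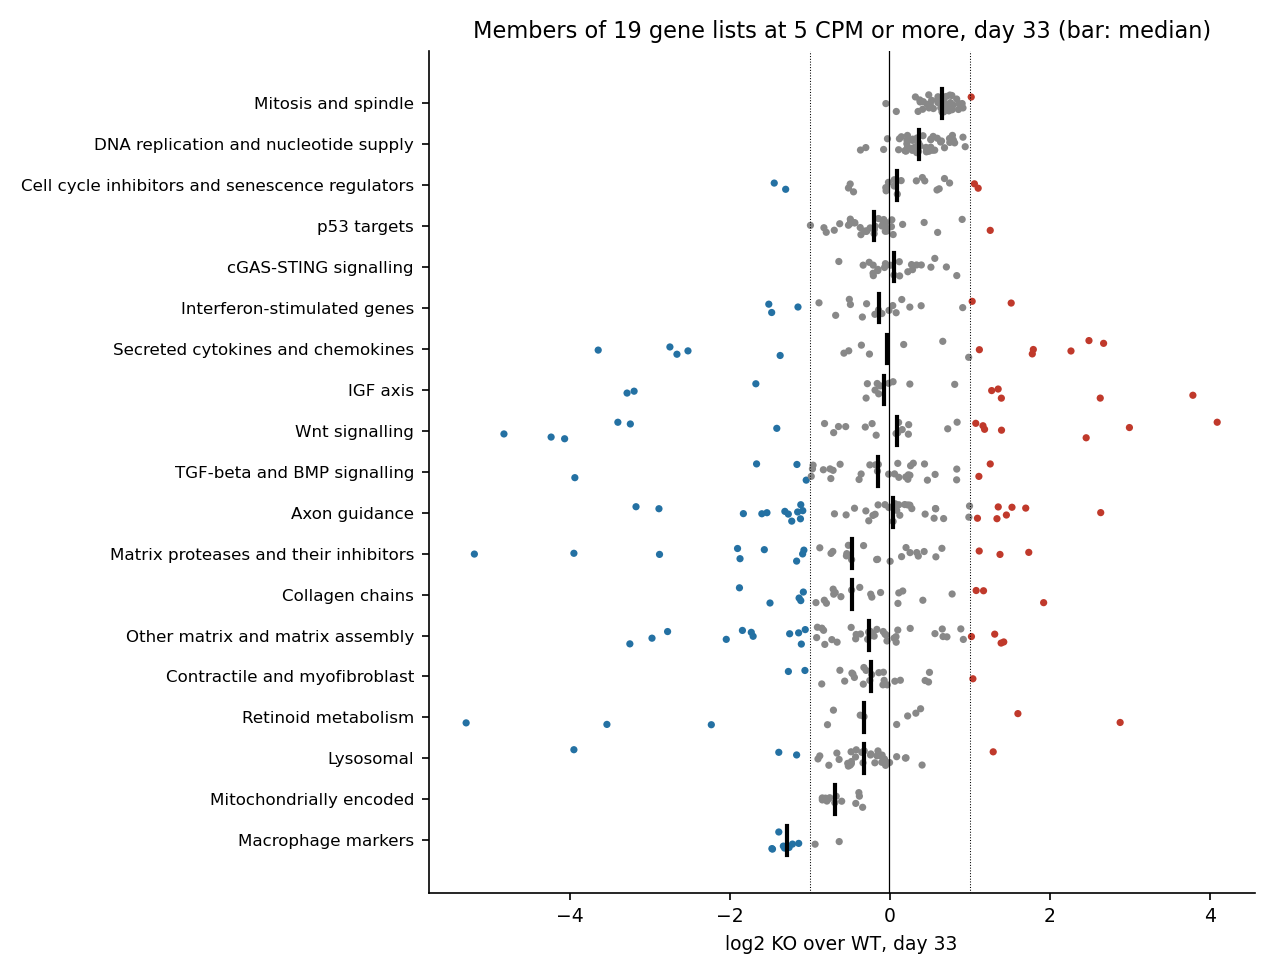
Each point is a gene of 1 of 19 lists that reached 5 CPM on day 33, placed by its log2 difference, KO over WT; black bars are list medians, red and blue mark at least 2-fold higher and lower in KO, and dotted lines mark 2-fold. Mitosis genes form a narrow group right of 0 (median 0.65), and mitochondrially encoded genes and macrophage markers lie wholly left of it. Some macrophage markers, such as Cd68, C1qa and Cd53, reached 5 CPM only in WT, so that threshold set their side. Cytokine, Wnt and protease genes spread widely in both directions.

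Many genes that record position in the embryo differed severalfold. Of 22 HOX genes at 5 CPM, 17 were past 2-fold lower and 2 higher in KO, and their median log2 difference was -1.83. Over all genes 4.15% were past 2-fold lower and 2.39% higher. Of the 22, 14 reached 5 CPM only in WT, 1 only in KO and 7 in both. For genes that reached it in only 1 genotype, that threshold set the direction. All 5 Hoxc genes at 5 CPM were lower, by a median of -3.06. All 5 (Hoxc4, Hoxc5, Hoxc6, Hoxc8 and Hoxc10) reached 5 CPM only in WT, so that threshold set their direction. The summed level of the 10 listed genes of the cluster, whatever their level, was 126.3 CPM in WT against 14.0 in KO. Hoxc6 (chromosome 15, 102998257 to 103011881, plus strand) was at 48.6 CPM in WT against 4.66 in KO on day 33, 10.4-fold lower (8.86 to 12.4), at 33.2 and 6.79 on day 36 and at 38.7 and 4.65 on day 42. At 5 CPM, both Hoxd genes and 5 of 7 Hoxb genes were lower. Hoxb3 and Hoxb4 were the exceptions, at 0.13 and 0.07. The Hoxa cluster was split, with Hoxa7, Hoxa9, Hoxa10, Hoxa11 and Hoxa13 past 2-fold lower and Hoxa3 and Hoxa5 higher.

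Grouped by paralogue number, a grouping made after the values were seen, all 10 genes of groups 8 to 13, which mark posterior and distal positions, were past 2-fold lower in KO. Of these 10, 8 reached 5 CPM only in WT, so that their direction was largely set by that threshold, and Hoxb9 and Hoxd13 reached it in both genotypes. Of the 12 genes of groups 1 to 7, 7 were lower and 2 higher. Among these 12, 6 reached 5 CPM only in WT, 1 only in KO and 5 in both. The medians of the posterior set were -2.31 on day 33, -4.55 on day 36 and -5.27 on day 42. Several distal genes had a low level in KO on day 33 and a lower one later. Hoxa13 was at 5.93 CPM in WT against 1.59 in KO on day 33, at 5.55 and 0 on day 36 and at 10.8 and 0 on day 42. Hoxd13 was at 22 and 9.14 CPM on day 33, 2.41-fold lower in KO (2.12 to 2.75), then at 5.85 and 0.0365 on day 36 and at 31.0 and 0 on day 42. Hoxa10 was at 14.6 and 2.08 CPM, then at 17.8 and 0.256, and at 20.0 and 0.177. Sex-linked RNA separated the same libraries, as given above, and its part in these values was not tested.

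Other factors of regional identity went both ways. Of 38 listed that reached 5 CPM, 11 were past 2-fold higher and 14 lower in KO, with a median of -0.08. The shares of all genes were 2.39% higher and 4.15% lower. Tfap2b, an AP-2 factor of neural crest and limb, had 267 counts in WT and 1 in KO, 192.7-fold lower in KO (34.3 to 7641). That size rests on 1 count in KO. En1, the factor of ventral limb and midbrain, was at 19 and 1.38 CPM, Shox2 at 42.5 and 3.58, Tbx4 of the hindlimb at 8.64 and 0.842, and Tbx5 of the forelimb at 7.79 and 0.932. All 5 reached 5 CPM only in WT, so that threshold set their direction on day 33. All but Tfap2b were chosen after their values were seen. On days 36 and 42 these 5 genes were past 2-fold lower in KO as well.

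Regional factors that were higher in KO on day 33 differed in their later values. Foxd1 (chromosome 13, 98354242 to 98359305, plus strand), a factor of kidney stroma, was at 0.434 CPM in WT against 20.6 in KO on day 33, 47.4-fold higher (30.4 to 78.1). On day 36 it was at 0.760 and 1.72 CPM and on day 42 at 1.88 and 1.21, so its high level was found in the KO library of day 33 alone among the 6. Pax1, a factor of the sclerotome, was at 0.217 and 5.23 CPM on day 33, 24.1-fold higher (12.8 to 51.2), and at no more than 0.798 CPM in any later library. Nkx3-2, which acts with Pax1 in cartilage precursors, was at 0.282 and 5.71 CPM, and it stayed higher in KO later, at 0.0922 and 3.61 on day 36 and at 0.485 and 4.15 on day 42. Foxc1, a forkhead factor of mesenchyme, was at 14.6 and 73.7 CPM. Foxp2, a forkhead factor outside the list, was at 5.80 and 62.5 CPM on day 33 and at 14.2 and 20.2 on day 36.

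**Figure D3:**
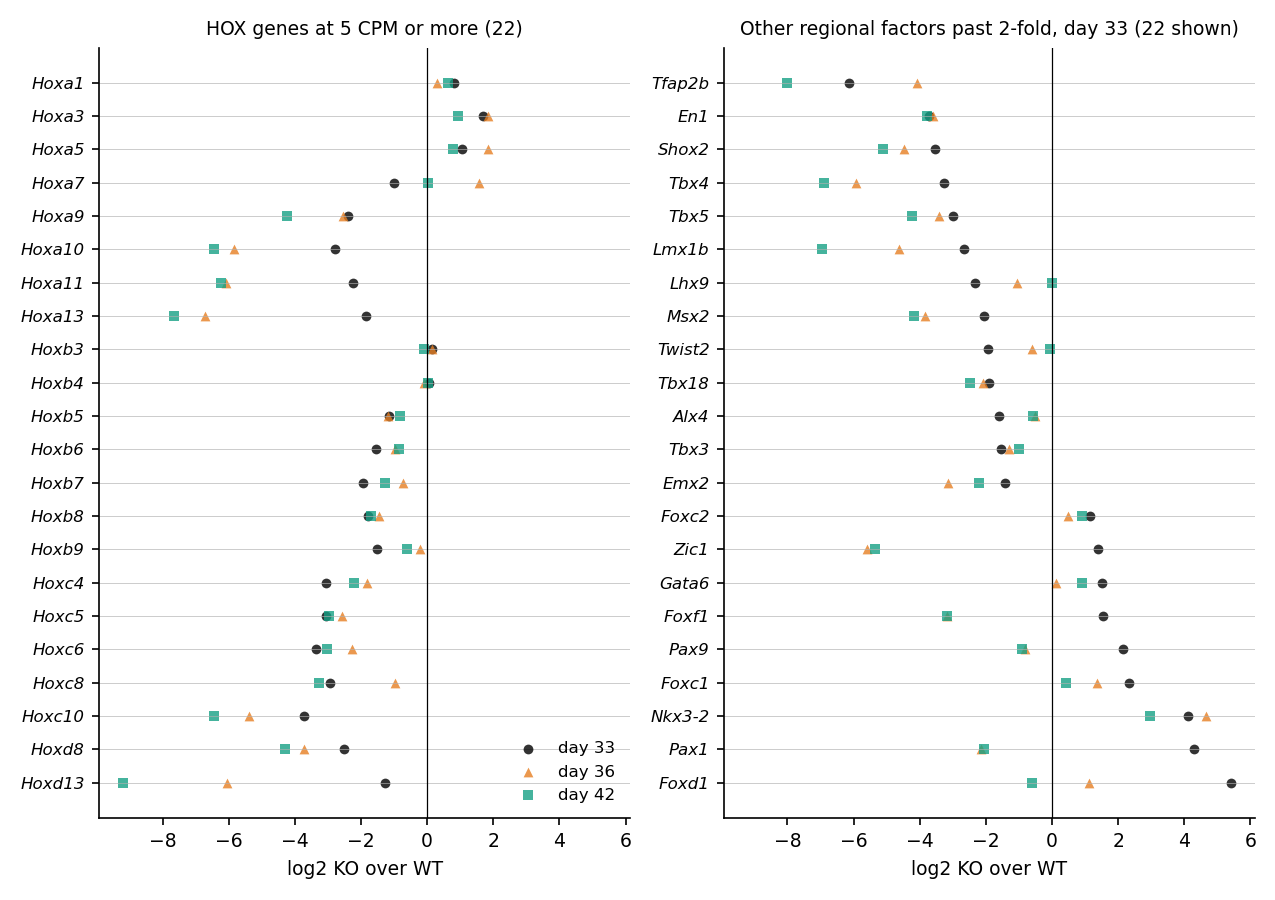
Log2 difference, KO over WT, of 22 HOX genes (left, by cluster and paralogue number) and of 22 of the 25 other regional transcription factor genes past 2-fold on day 33 (right), each on day 33 (circles), day 36 (triangles) and day 42 (squares), from 1 library per genotype and day. The 10 HOX genes of groups 8 to 13 lie left of 0 on all 3 days. Of these 10, 8 reached 5 CPM only in WT on day 33, and all but Hoxb8 and Hoxb9 lie farther left on day 42. Foxd1, Pax1, Zic1 and Foxf1 lie right of 0 on day 33 and left of it on day 42.

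Cartilage matrix genes were high in the KO library of day 33. Col2a1 (chromosome 15, 97975602 to 98004695, minus strand), the main collagen of cartilage, was at 52.6 CPM in WT against 1099 in KO, 20.9-fold higher (20.1 to 21.8), at 60.5 and 127.4 on day 36 and at 69.4 and 91.2 on day 42. Acan, the cartilage proteoglycan aggrecan, was at 5.49 and 26.6 CPM on day 33, 4.85-fold higher (4.21 to 5.60), and at 1.04 and 1.1 on day 36. Sox9, the factor that drives both genes in cartilage, was at 24.8 and 38.5 CPM. Col11a1, a minor cartilage collagen, was at 316.4 and 712.2 CPM, 2.25-fold higher (2.21 to 2.30), and at 369.1 and 601.7 on day 36. Of 10 listed cartilage and bone markers, 4 reached 5 CPM, 2 of these were past 2-fold higher and 4 lay above 0. The summed level of the 10 markers was 117.9 CPM in WT against 1208 in KO on day 33, against 114.8 and 197.6 on day 36, and most of the day 33 sum in KO was Col2a1.

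Other matrix genes lay on both sides, with more of them lower in KO. Of 25 collagen chains at 5 CPM, a list without Col2a1, which is counted with the cartilage markers, 3 were past 2-fold higher and 5 lower, with a median of -0.48, and of 48 other matrix genes 4 were higher and 11 lower, with a median of -0.26. The basement membrane chains Col4a6 (15.1 and 4.06 CPM) and Col7a1 (274 and 96.9 CPM, 2.83-fold lower in KO, 2.72 to 2.94) were among the lower, and Col8a2 was higher with 6.88 and 26.3 CPM. Col7a1 changed order by day 42, at 129.6 and 219.1 CPM. Decorin, a small proteoglycan that binds collagen (Dcn), was at 73.3 CPM in WT against 7.64 in KO, 9.60-fold lower (8.44 to 10.9), and fibulin 3 (Efemp1) at 604.9 and 76.8 CPM, 7.87-fold lower (7.56 to 8.20). Efemp1 was again low in KO on day 36 (513.9 and 29.2 CPM) and day 42 (341.4 and 26.2). Tenascin genes lay on the same side, with Tnxb at 17.3 and 2.47 CPM, Tnn at 15.3 and 3.67 and the abundant Tnc at 5274 and 2794 CPM, 1.89-fold lower (1.87 to 1.90). Dermatopontin (Dpt) was at 34.6 and 1.38 CPM. Fibulin 5 (Fbln5), an organizer of elastic fibres, was higher with 614.7 and 1246 CPM on day 33, and lower in KO on day 42 with 1391 and 1046.

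Among the most abundant RNAs, differences were modest. Fibronectin (Fn1) was at 28885 CPM in WT and at 34446 CPM in KO (ratio 1.19), and the crosslinking enzyme gene Lox was at 3548 and 5817 CPM, a ratio of 1.64. Col1a1 stood at 9263 and 10353 CPM and Vim at 5331 and 4370. Among 13 fibroblast markers, 0 were past 2-fold higher in KO and 5 lower, and the median was -0.29. Thy1 was at 1492 and 647.7 CPM, 2.30-fold lower (2.27 to 2.34), and Lum, Fap, Dcn and Pdgfra were the others. Contractile genes had a median of -0.24 over 24 members, with Cnn1 (calponin) at 364.1 and 174.3 CPM and Mrvi1 at 24.1 and 9.95 past 2-fold lower. Cnn1 and the adhesion receptor gene Cd44 (1821 and 888.8 CPM) were under 2-fold when library totals were used without TMM factors.

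Matrix proteases and their inhibitors had a median of -0.48 over 31 members, 3 past 2-fold higher and 9 lower in KO. Mmp9, gelatinase B, was at 8.53 CPM in WT from 393 counts and at 0.180 in KO from 6 counts, 47.3-fold lower (21.5 to 129.6). Cathepsin K (Ctsk), a collagen-degrading protease, was at 139.1 and 8.93 CPM, 15.6-fold lower (13.9 to 17.6), and at 116.0 and 12.4 on day 36 and 124.5 and 9.46 on day 42. Serpinb2 was at 8.10 and 1.05 CPM and Adamts9 at 27.3 and 7.25. Mmp13, collagenase 3, was at 3.43 and 8.99 CPM on day 33 and at 2.10 and 0 on day 36. On day 33 Mmp9 and Serpinb2 reached 5 CPM only in WT and Mmp13 only in KO, so that threshold set their direction. Macrophages also make Mmp9 and cathepsins, and the summed macrophage markers were 246.7 CPM in WT and 107.4 in KO; their part in these values was not tested.

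Secreted cytokines and chemokines were split, 6 of 18 at 5 CPM past 2-fold higher and 5 lower in KO, with a median of -0.04. Cxcl12, a chemokine that holds progenitor cells in stroma, was at 415.9 CPM in WT against 2653 in KO on day 33, 6.38-fold higher (6.28 to 6.48), but at 680.9 and 1086 on day 36 and 927.9 and 1146 on day 42. The KO level was thus highest on day 33, where the WT level was lowest. Lif, which signals like IL-6 through gp130, was at 22 and 75.9 CPM, 3.44-fold higher (3.2 to 3.71), and at 23.3 and 104.8 on day 36. Il6 itself, a cytokine of the senescent secretome, was at 3.60 and 12.6 CPM on day 33, 3.51-fold higher in KO (2.92 to 4.22), and at 4.38 and 1.86 on day 36 and 2.94 and 0.582 on day 42. The monocyte chemokine gene Ccl2 was at 153.3 and 24.2 CPM, 6.35-fold lower in KO (5.90 to 6.84), the neutrophil chemokine gene Cxcl5 at 27.2 and 4.0, and the stem cell factor gene Kitl at 61.7 and 4.87, 12.7-fold lower (10.8 to 14.9). These 3 genes were past 2-fold lower in KO on both later days too.

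Of 18 genes of the insulin-like growth factor (IGF) axis, 5 were past 2-fold higher and 3 lower, with a median of -0.07. Igfbp2, an IGF-binding protein, was at 132.9 CPM in WT against 1839 in KO, 13.8-fold higher (13.5 to 14.2), and on day 42 its level was 477.2 and 3600 CPM. Igfbp3 was at 109.9 and 11.9 CPM, 9.23-fold lower in KO (8.33 to 10.3), and Igfbp6 at 41.9 and 4.24. Their later KO levels were lower still, 1.17 and 0.759 CPM for Igfbp3 on days 36 and 42. Pappa2, a protease that frees IGF from its binding proteins, was at 0.955 and 6.20 CPM on day 33.

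**Figure D4:**
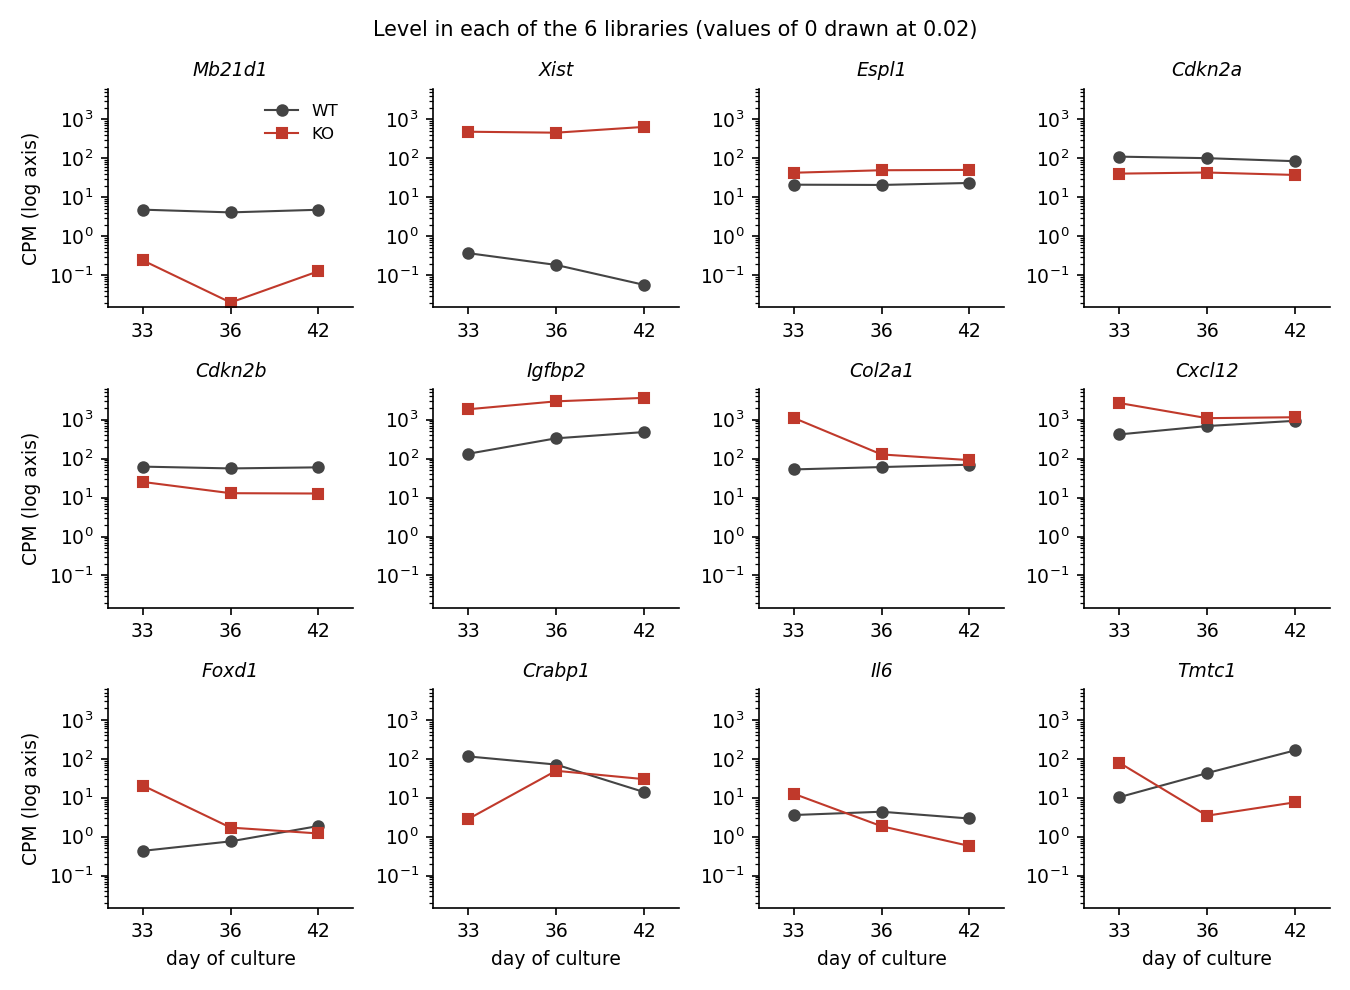
Level of 12 genes in each of the 6 libraries, in CPM on a log axis, against the day of culture, with WT as grey circles and KO as red squares and values of 0 drawn at 0.02; each point is 1 library. Mb21d1, Xist, Espl1, Cdkn2a, Cdkn2b and Igfbp2 keep the genotypes apart on all 3 days, whereas the genotypes of Col2a1, Cxcl12, Foxd1 and Crabp1 lie farther apart on day 33 than on days 36 and 42, and Il6 and Tmtc1 cross.

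Wnt signalling genes were also spread, 7 of 28 past 2-fold higher and 6 lower, with a median of 0.09. The ligand gene Wnt16 was at 1.74 CPM in WT against 30.5 in KO, 17.6-fold higher (14.0 to 22.4). Wnt4 was at 8.90 and 0.421 and Wnt2 at 5.38 and 0.271. Wnt16 reached 5 CPM only in KO, and Wnt4 and Wnt2 only in WT, so that threshold set their direction. The antagonist gene Dkk2 was at 82.6 and 2.86 CPM, 28.9-fold lower in KO (23.6 to 35.8), and close to that on day 36 (47.6 and 1.93) and day 42 (38.6 and 1.27). In TGF-beta and BMP signalling 2 of 35 were higher and 4 lower, beside 2.39% and 4.15% of all genes. The BMP receptor gene Bmpr1b was at 27.8 and 8.72 CPM. In FGF, PDGF and VEGF signalling 2 of 30 were higher and 5 lower. Hgf, the ligand of the Met receptor, was at 8.47 and 39.4 CPM, Figf (VEGF-D) at 76.5 and 11.9, and the feedback inhibitor gene Spry1 at 85.2 and 22.6. The VEGF receptor gene Flt1 was at 129.3 and 47.2 CPM on day 33 and at 31.6 and 70.5 on day 42. The Notch ligand gene Jag1 was at 100.8 and 38.0 CPM and was the only one of 14 Notch and Hedgehog genes past 2-fold.

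Axon guidance genes, many of which guide fibroblasts and vessels as well, had 7 of 46 members past 2-fold higher and 12 lower. Slit3, a repellent ligand, was at 427.2 CPM in WT against 57.6 in KO, 7.42-fold lower (7.08 to 7.78), and Sema3c at 199.7 and 22, 9.06-fold lower (8.40 to 9.78). Ntrk3, the receptor of neurotrophin 3, was at 1.67 and 10.7 CPM. Tenm3, a teneurin that mediates cell contact and lies outside the list, was at 16.2 and 234.4 CPM on day 33, 14.4-fold higher (13.4 to 15.6), at 19.8 and 108.4 on day 36 and at 44.2 and 156.7 on day 42. Among adhesion genes 5 of 38 were higher and 9 lower. Itga4, the alpha-4 integrin, was at 45.8 and 3.07 CPM, 14.9-fold lower in KO (12.2 to 18.4), its ligand gene Vcam1 at 290.3 and 101.7, and Icam1 at 11.4 and 4.78. Cdh10, a cadherin, was at 9.40 and 57.0 CPM. Of 12 desmosome and epithelial adhesion genes 1 was past 2-fold higher and 5 lower. Plakophilin 1 (Pkp1) was at 3.32 and 31.8 CPM, 9.58-fold higher (8.08 to 11.4), and desmoplakin (Dsp) at 6.17 and 0.601. Pkp1 and Ntrk3 reached 5 CPM only in KO, and Dsp, Itga4 and Icam1 only in WT, so that threshold set their direction.

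Retinoid genes showed large differences in both directions, 2 of 13 past 2-fold higher and 3 lower. Crabp1 (chromosome 9, 54764748 to 54773110, plus strand), which binds retinoic acid in the cytosol, was at 114.7 CPM in WT against 2.86 in KO on day 33, 40.1-fold lower (32.8 to 49.7). It was at 71.0 and 49.2 CPM on day 36 and at 14.1 and 30.1 on day 42, so the low level was found in the KO library of day 33 alone. Crabp2 was at 29.4 and 6.20 CPM and the retinol dehydrogenase gene Dhrs9 at 40.8 and 3.46, and both stayed past 2-fold lower on the later days. Cyp26b1, which breaks retinoic acid down, was at 7.40 and 54.8 CPM, 7.41-fold higher in KO (6.59 to 8.34). Imprinted genes, which act in fetal growth, had 5 of 21 members past 2-fold higher and 1 lower. Mest was at 9.23 and 78.3 CPM, 8.48-fold higher (7.65 to 9.42), but at 90.0 and 35.9 on day 42, and Peg10 at 39.9 and 102.0.

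Counts in metabolic and housekeeping groups are read against the 2.39% and 4.15% of all genes past 2-fold higher and lower. All 13 protein-coding genes of the mitochondrial genome were lower in KO, from -0.85 to -0.34 with a median of -0.69, and 0 were past 2-fold. Their summed level was 19483 CPM in WT against 12606 in KO, against 25317 and 6308 on day 36 and 10739 and 8048 on day 42, and mt-Nd1, a complex I subunit, was at 3429 and 2034 CPM. Genes of cholesterol and fatty acid synthesis had a median of 0.17 over 32, with 0 past 2-fold higher and 1 lower. Glycolysis and hypoxia genes had a median of -0.21 over 26, with Egln3 at 9.47 and 3.46 CPM. Genes of the unfolded protein response had 0 of 31 past 2-fold, metallothionein and heat shock genes 0 of 16, and genes that vary between C57BL/6 substrains 0 of 5. Antioxidant genes had 2 of 32 lower, Gsta4 and Gpx3 (34.5 and 15.6 CPM). Lysosomal genes had a median of -0.32 over 37, with 32 below 0 and 5 above, while 48.0% of all genes lay above 0. Of the lysosomal genes, Ctsb was at 964.1 and 429.2 CPM and Ctsh higher at 21.6 and 53.1. Genes of prostanoid, purine and renin-angiotensin signalling had 2 of 17 past 2-fold higher and 7 lower, NF-kB subunits and feedback genes 0 of 19 higher and 2 lower, and immediate early genes 1 of 22 higher and 0 lower. Of 39 cytosolic ribosomal protein genes at 5 CPM, 38 were within 2-fold, and Rpl39l was past it. Rpl39l (chromosome 16, 10170226 to 10174911, plus strand), a copy of Rpl39 known from testis, had 591 counts in WT and 1 in KO on day 33. It was 426.6-fold lower in KO (76.3 to 16879), a size that rests on 1 count in KO. Its level was 8.78 and 0.109 CPM on day 36 and 7.47 and 0 on day 42. Rpl39 was at 0.868 and 1.44 CPM, and as the copies are near-identical their values are uncertain.

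Further large differences were found in genes of varied function. Gpr149 (chromosome 3, 62529077 to 62605140, minus strand), an orphan receptor, was at 120.5 CPM in WT against 1.26 in KO, 95.4-fold lower (70.5 to 132.5), and at 107.8 and 2.48 on day 36. Pla2g7, which inactivates platelet-activating factor, was at 56.8 and 1.56 CPM, 36.3-fold lower (27.6 to 48.8), and the angiotensin receptor gene Agtr2 at 19.1 and 0.992. St3gal6, a sialyltransferase, was at 26.1 and 0.752 CPM, the synaptotagmin gene Syt13 at 60.7 and 2.08, Ptprv at 18.5 and 0.541, Uts2b at 5.12 and 0.120, Ifi27l2b at 14.5 and 0.451 and C77370 at 9.03 and 0.150. Chodl, a membrane lectin, was at 0.304 CPM in WT against 15.1 in KO, 49.7-fold higher (29.3 to 91.5), and at 8.41 and 9.0 on day 42. Myct1 was at 1.43 and 21.0 CPM on day 33 and at 18.1 and 18.4 on day 36. Palmd was at 4.28 and 42.3 CPM, Dgkg at 0.347 and 6.26, and Selp, a selectin of endothelium and platelets, at 1.76 and 17.9, while Kdr, the only listed endothelial marker at 5 CPM, was at 10.8 and 8.03. Complement regulators lay on both sides, with Cd59a at 9.29 and 35.9 CPM and Cd55 at 40.1 and 10.5.

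The differences of day 33 were set beside those of days 36 and 42, whose libraries had not been used to choose the genes. Over all 11877 genes, 73.2% had the same sign on day 36 as on day 33 and 67.8% on day 42. At least 2-fold higher in KO were 302 of these genes (2.54%) on day 36 and 330 (2.78%) on day 42, and at least 2-fold lower were 649 (5.46%) and 724 (6.1%). Of the 493 lower genes, 328 (66.5%) were past 2-fold lower on day 36, 312 (63.3%) on day 42 and 266 (54.0%) on both. Of the 284 higher genes, 142 (50%) were past 2-fold higher on day 36, 87 (30.6%) on day 42 and 72 (25.4%) on both. The median size of the higher genes was 1.4 on day 33, 1.0 on day 36 and 0.52 on day 42, and that of the lower genes 1.58, 1.47 and 1.54, in log2 units. Day 33 chose the genes, so its sizes are selected to be large and the later ones are not.

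A total of 127 higher genes (44.7%) and 119 lower genes (24.1%) were past 2-fold in the same direction on neither later day. Among the 169 genes that were at least 4-fold lower, 14 were of that kind, and among the 69 at least 4-fold higher 19 were. In the opposite direction on both later days, past 2-fold each time, were 13 higher genes and 1 lower gene. Tmtc1, which encodes a protein of the endoplasmic reticulum, had the largest day 33 difference of these 14 after Pax1, at 10.4 CPM in WT and 79.1 in KO, 7.64-fold higher (6.92 to 8.44), and it was at 42.8 and 3.47 on day 36 and at 163.4 and 7.61 on day 42. Whether the KO difference of day 33 itself differed from that of the later days was tested in the edgeR fit, which called 0 of 18620 genes, or 0%, with 693 at an unadjusted p below 0.05. DESeq2 called 96.

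**Figure D5:**
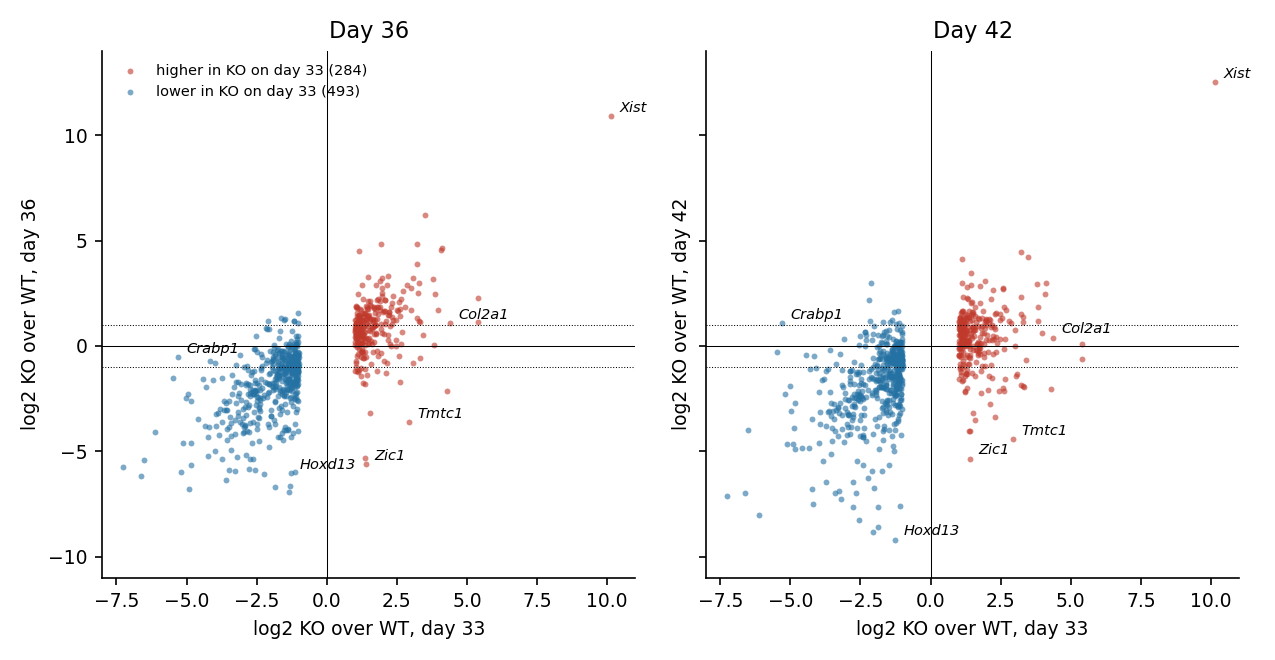
Log2 difference, KO over WT, of the 777 genes past 2-fold on day 33, with day 33 across and day 36 (left panel) or day 42 (right panel) upward; red genes were higher and blue genes lower in KO on day 33, and dotted lines mark 2-fold on the later day. Most blue points lie below 0 in both panels, while red points crowd around 0 on day 42.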

How the data were processed

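Bulk RNA was prepared on RNeasy columns and made into stranded mRNA libraries, per the labels' protocols. The deposited table holds estimated counts per gene, fractional and not normalized. The submitters' processing notes name the build mm10, Bowtie2 2.2.1 and limma 3.18.13. The sources used here give neither the counting program nor its use of strand, so overlapping and antisense genes may share reads. The table's other 24 per-sample columns and the 48 of the transcript table were not used.

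The 4 columns of each genotype and day were added up, rounded to whole numbers and treated as 1 library, 6 in all, of 25650577 to 48716880 counts. CPM used edgeR's TMM factors over the 6 libraries, and log2 CPM a prior count of 2. A difference was counted at 5 CPM or more in either day 33 library and at least 2-fold. Ratio intervals are exact 95% binomial intervals. The tests were edgeR 4.0.16 (quasi-likelihood, Benjamini-Hochberg adjustment) and DESeq2 1.42.0, in R 4.3.3, with limma 3.58.1 (voom) as a further alternative; the scripts were tested on simulated data. Gene positions are from the mouse annotation on GRCm38, and promoter sequences from RefSeq.

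Genes and gene lists were chosen with earlier results of these data known. Genes named by rule were the targeted gene, the 15 largest log2 differences and the 10 largest CPM differences each way, up to 4 of each list past 2-fold, a short core set, and those at the thresholds. Others, such as the further HOX genes, En1, Shox2, Tbx4, Cdc20, Top2a, Kif11 and the genes of opposite direction on later days, were chosen after their values were seen. The numbers of the columns did not pair WT with KO: their deviations correlated at -0.0142 to 0.0036. A few genes that the rule would name are not reported here.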

Additional observations from a re-analysis of the deposited data

Results flagged for a closer look

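For 14 genes the KO difference of day 33 was past 2-fold one way and past 2-fold the other way on both later days. The edgeR test of that difference called 0 genes, and each value rests on 1 library per genotype and day. Cd34, a surface marker of progenitor and stromal cells, was lower in KO on day 33 (log2 difference -1.17, 31.4 CPM in WT and 13.9 in KO) and higher on day 36 (16.4 and 37.0) and day 42 (18.3 and 58.4). The other 13 were higher in KO on day 33. Dusp27 differed by 1.08, Akap6 by 1.23, Gata3 by 1.24, Gpr39 by 1.3 and Mmp13 by 1.38 on the log2 scale. Zic1 differed by 1.39, Fmod by 1.42, Foxf1 by 1.53, Il6 by 1.79 and Vip by 2.13. Pappa2 differed by 2.63, Tmtc1 by 2.93 and Pax1 by 4.29. Fmod, which encodes the collagen-binding fibromodulin, was at 28.0 CPM in WT against 75.1 in KO on day 33, at 15.4 and 5.99 on day 36 and at 196.2 and 12.1 on day 42. Zic1 was at 2.93 and 7.79 CPM, then at 4.31 and 0.0365, then at 2.11 and 0.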

How the results depend on the processing

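With 1 library per genotype the precision is that of counting, and variation between cultures was not measured. The 777 genes past 2-fold became 1339 (439 higher, 900 lower) at 1 CPM, 2837 (910 and 1927) with no more than a count required, 1730 (740 and 990) at 1.5-fold and 238 (69 and 169) at 4-fold. Other scalings and prior counts gave 751 to 780 genes, and leaving out any 1 numbered column 769 to 775 (276 to 289 higher, 480 to 496 lower). The share higher in KO ran from 28.99% at 4-fold to 42.77% at 1.5-fold, and scalings moved the median of all genes by at most 0.06. Of 151 named genes past 2-fold, Cd44 and Cnn1 were under it with library totals, Des with a prior count of 10, and Des and Espl1 without column 1 or column 4. With the 8 columns taken as separate samples and the replicate number as a block, 778 genes (289 higher, 489 lower) were past 2-fold, as without the block. That fit gave 8209 genes at an adjusted p below 0.05 and 8190 without the block, but its columns differ by less than sampling noise. The edgeR test on day 33 called 0 genes, DESeq2 367, edgeR without a filter 127, without the WT library of day 36 744, without that of day 42 882, and with day as a factor, chosen after seeing the data, 268. For the difference between day 33 and the later days the same settings called 0, 96, 3, 383, 83 and 13. limma-voom, DESeq2's size factors in edgeR, a 5 CPM filter and leaving out either KO library called 0 in both tests. The cause of these differences was not tested. Of the 777 genes 43.5% were past 2-fold on both later days, and of those past 4-fold 68.5%. Among named genes 75 values moved and 1725 did not, among list medians 6 and 444. No value past 2-fold changed sign, but medians near 0 of 5 lists did in 12 of these refits (secreted cytokines, unfolded protein response, desmosome, imprinted and substrain genes), as did Isg15 and Arhgef3.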
